A study of Nicotiana tabacum with 18 samples.

Results

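The rbcl genes are 6 gene models of tobacco (Nicotiana tabacum) that the study listed under the name of the large chain of Rubisco, out of 69500 genes in the expression table. They were taken from the study's own list of photosynthesis genes that lay above both parents in the hybrid Va116×GDH94, and were looked up by identifier. The members are Nitab4.5_0000841g0020 (named NtrbcL by the study), Nitab4.5_0002553g0010, Nitab4.5_0002755g0110, Nitab4.5_0002183g0050, Nitab4.5_0000007g0300 and Nitab4.5_0000659g0110. The list was drawn up on the Va116×GDH94 libraries described here, so the rise in that hybrid is what chose the members and is given only as a description. The other cross and the differences among the parents were not what the list was chosen for.

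Leaves were collected 45 days after transplanting from 6 genotypes with 3 biological replicates each, giving 18 RNA-seq libraries. One cross had Va116 and GDH94 as parents and Va116×GDH94 as the hybrid, and the other had K326 and GDH88 as parents and K326×GDH88 as the hybrid. No treatment was given, and each genotype was a field-grown variety, line or first-generation hybrid. Each replicate was a mix of leaves of several plants of a plot.

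Rubisco fixes CO2 in the first step of the Calvin cycle. In plants its large chain, which carries the active site, is encoded by the chloroplast genome, while the small chain is encoded by a family of genes in the nucleus. Nuclear genomes also hold copies of chloroplast DNA, and such copies can be nearly identical to the chloroplast gene. In the RefSeq annotation of tobacco (assembly ASM71507v2) 1 gene is named rbcL, and it lies on the chloroplast genome. None of the identifiers used here matched that annotation, so positions are not given. Reads shared between near-identical copies are divided between them by estimation, so the value of any single member is uncertain. Whether a member's reads came from a nuclear gene or from chloroplast RNA cannot be told apart here.

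The study's annotation described 4 of the 6 members. It gave Nitab4.5_0000841g0020 the C-terminal domain of the large chain only. Nitab4.5_0002755g0110 carried the C-terminal and N-terminal domains, and Nitab4.5_0002183g0050 and Nitab4.5_0000007g0300 were described with the active site as well. No description of Nitab4.5_0002553g0010 or Nitab4.5_0000659g0110 was found in the text sources, and their place in the family rests on the study's list alone. The only sequences at hand were the qPCR primers that the study designed on NtrbcL. They are shown because NtrbcL is the 1 member for which the study listed primers for a second method. The qPCR values were not used here, and whether the primers match this member alone was not tested. Both are 19 bases long and written 5′ to 3′.
NtrbcL forward: tatcgccaacgagaaatcg
NtrbcL reverse: cctgaagccacgggtaaaa

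The values are FPKM, fragments scaled to transcript length and to the size of the library, so levels can be compared between genes. Sums per library ranged from 887628 to 1062588 FPKM, and 41974 to 44138 genes were above 0. The leaf genes NtLhcb1 and NtLhcb2, which encode light-harvesting chlorophyll-binding proteins, were present in every library, at 9.36 to 75.3 FPKM and at 25.6 to 89.9 FPKM. In whole leaves, fewer cells of a type and less RNA per cell cannot be told apart.

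In Va116×GDH94 all 6 members had their 3 libraries above all 15 other libraries, which held for 9.31% of 36573 genes with a mean of at least 1 FPKM in some genotype. As the list was drawn up on a rise in this hybrid, nothing is read from that count. All but 1 of them were genes of low to moderate level, with means of 11.4 to 42.3 FPKM in Va116×GDH94 and of 1.21 to 12.1 FPKM in the other genotypes. The exception, Nitab4.5_0000659g0110, was a gene of high level throughout, at 287 to 690 FPKM, with a rank between 134 and 346 among all 69500 genes.

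**Figure D1:**
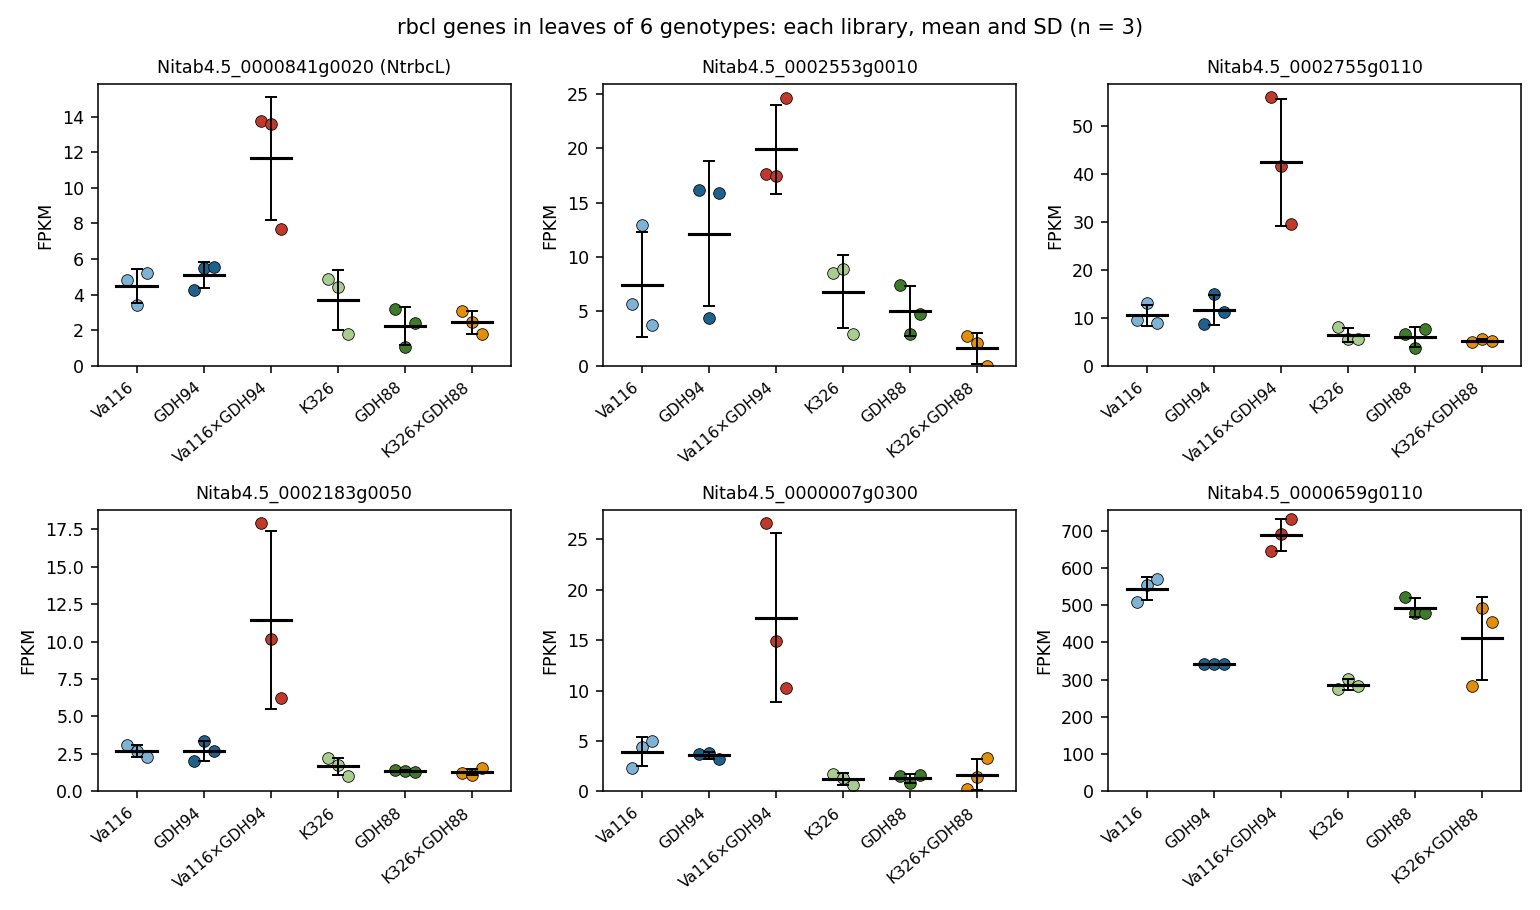
FPKM of the 6 rbcl genes (y axis, linear from 0, a scale for each panel) in the 6 genotypes (x axis). Points are libraries, wide bars the mean and thin bars the SD (n = 3). The 3 libraries of Va116×GDH94 are above all others in every panel, and Nitab4.5_0000659g0110 runs from 274 to 732 FPKM.

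Nitab4.5_0002755g0110 had the highest level in Va116×GDH94 after Nitab4.5_0000659g0110. The hybrid Va116×GDH94 had 56.0, 41.6 and 29.4 FPKM, Va116 had 9.48, 13.0 and 8.95, and GDH94 had 8.61, 14.9 and 11.3. In the other cross they were 4.90, 5.47 and 5.20 FPKM in K326×GDH88, 8.04, 5.55 and 5.49 in K326, and 6.60, 3.73 and 7.70 in GDH88. The parents of Va116×GDH94 overlapped each other, and all 9 libraries of the K326×GDH88 cross were below the lowest library of either. The mean of 42.3 ± 13.3 FPKM (SD, n = 3) in Va116×GDH94 was 3.84 times the mean of its parents.

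Nitab4.5_0002183g0050, 1 of the members described with the active site, ran well below that level. The libraries of Va116×GDH94 had 18.0, 10.2 and 6.21 FPKM, those of Va116 3.10, 2.70 and 2.28, and those of GDH94 2.04, 3.38 and 2.66. The K326×GDH88 libraries had 1.25, 1.10 and 1.53 FPKM, those of K326 2.20, 1.76 and 1.02, and those of GDH88 1.41, 1.38 and 1.26. Va116 and GDH94 had equal means of 2.69 FPKM, and the hybrid had 4.25 times that level. The 3 genotypes of the other cross overlapped.

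Nitab4.5_0000007g0300, the other member with the active site, showed the largest ratio of Va116×GDH94 to its parents among the 6, at 4.60 times. Values of 26.6, 14.9 and 10.3 FPKM in Va116×GDH94 stood against 2.30, 4.44 and 5.02 for Va116 and 3.74, 3.84 and 3.18 for GDH94. In the other cross they were 0.19, 1.45 and 3.30 FPKM in K326×GDH88, 1.74, 1.27 and 0.61 in K326, and 1.53, 0.80 and 1.57 in GDH88. The 3 replicates of K326×GDH88 spread over a wider range than all libraries of its parents together.

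NtrbcL (Nitab4.5_0000841g0020), the model with the C-terminal domain only, rose less. It had 13.7, 13.6 and 7.66 FPKM in Va116×GDH94, against 4.81, 3.40 and 5.21 for Va116 and 4.26, 5.48 and 5.54 for GDH94. It had 3.08, 2.47 and 1.77 FPKM in K326×GDH88, 4.88, 4.44 and 1.77 in K326, and 3.18, 1.07 and 2.41 in GDH88. Va116×GDH94 was at 2.44 times the mean of its parents, and K326×GDH88 at 0.825 times.

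Nitab4.5_0002553g0010 varied widely within most genotypes. Va116 had 5.71, 12.9 and 3.72 FPKM, GDH94 had 16.1, 4.41 and 15.9, and their hybrid had 17.6, 17.5 and 24.6. In the other cross K326 had 8.53, 8.90 and 2.93 FPKM, GDH88 had 7.43, 2.88 and 4.72, and K326×GDH88 had 2.74 and 2.06 with 1 library listed at 0. The lowest library of Va116×GDH94, at 17.5 FPKM, was close to the highest of GDH94, at 16.1 FPKM. The lowest library of either K326 or GDH88, at 2.88 FPKM, was close to the highest of K326×GDH88, at 2.74 FPKM.

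Nitab4.5_0000659g0110 followed another order of genotypes. Va116 had 509, 555 and 570 FPKM, GDH94 had 342, 343 and 341, and their hybrid had 646, 691 and 732. It had 284, 494 and 455 FPKM in K326×GDH88, 274, 302 and 284 in K326, and 523, 479 and 479 in GDH88. Within each cross the parents did not overlap, with Va116 above GDH94 and GDH88 above K326. Replicate 1 of K326×GDH88 was at the level of K326, and the other 2 replicates were near GDH88.

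Ordered by mean from the highest, NtrbcL, Nitab4.5_0002755g0110 and Nitab4.5_0002553g0010 began with Va116×GDH94, then GDH94, Va116 and K326. The order of the other 3 members began with Va116×GDH94 and Va116, a tie with GDH94 for Nitab4.5_0002183g0050. Neighbours in this order below Va116×GDH94 mostly overlapped in their libraries. The exceptions were Va116 above K326 for Nitab4.5_0002755g0110, GDH88 above K326×GDH88 for Nitab4.5_0002553g0010, and GDH94 above K326 for Nitab4.5_0000659g0110.

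The first comparison was of Va116×GDH94 with both parents, the contrast on which the study chose the genes. It was fitted with limma on log2(FPKM + 1), a scale on which changes of low genes are understated, and a gene was called at a Benjamini-Hochberg adjusted p under 0.05. Of the members, 5 of 6 were called above both parents, all but Nitab4.5_0002553g0010, beside 13.1% of the 36068 genes tested. With a limit of 2-fold as well, 4 of 6 were called, beside 0.602% of all genes. As the genes were listed for this pattern, nothing is read from these counts. On the log2 scale, the deviation from the mid-parent value, the mean of both parents, was 1.87 ± 0.27 (SE) for Nitab4.5_0000007g0300, 1.83 ± 0.21 for Nitab4.5_0002755g0110 and 1.65 ± 0.25 for Nitab4.5_0002183g0050. It was 1.10 ± 0.18 for NtrbcL, 1.14 ± 0.42 for Nitab4.5_0002553g0010 and 0.67 ± 0.05 for Nitab4.5_0000659g0110. The weakest step of Nitab4.5_0002553g0010 was against GDH94, at 0.83 ± 0.48 with a 95% interval from -0.25 to 1.91. That of Nitab4.5_0000659g0110 was against Va116, at 0.34 ± 0.05. It was 0.18 with quantile normalization and was not called in a fit of all libraries.

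The K326×GDH88 cross asks whether the rise over both parents occurred in a hybrid that the list was not drawn from. None of the 6 members was called above both K326 and GDH88 in limma, at the adjusted or at the unadjusted threshold of 0.05, beside 4.24% of 35438 genes tested. None was called below both parents either, beside 9.01% of all genes, and 1 member, Nitab4.5_0002553g0010, was below both at an unadjusted p under 0.05. Its log2 fold change was -1.67 ± 0.50 (SE) against K326 (adjusted p = 0.034) and -1.34 ± 0.50 against GDH88 (adjusted p = 0.055). The call against K326 was lost without K326 replicate 1 or 2 (adjusted p = 0.12 and 0.090) and without K326×GDH88 replicate 3, where the value was -1.09 (adjusted p = 0.072). Against GDH88 a call was gained without K326 replicate 3 (adjusted p = 0.042) or K326×GDH88 replicate 1 (adjusted p = 0.037).

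Against the mid-parent value of this cross, 1 of 6 members differed, beside 34.7% of all genes. Nitab4.5_0002553g0010 fell by 1.51 ± 0.43 on the log2 scale (limma adjusted p = 0.022), where the median over all genes tested was -0.10. Without replicate 3 of K326×GDH88, the library listed at 0, the value was -0.92 and the call was lost (adjusted p = 0.072). For the other 5 members the deviation lay between -0.18 and 0.09. The 95% interval was -0.57 to 0.21 for Nitab4.5_0002755g0110, -0.43 to 0.20 for Nitab4.5_0002183g0050, -0.66 to 0.80 for Nitab4.5_0000007g0300, -0.72 to 0.46 for NtrbcL and -0.23 to 0.40 for Nitab4.5_0000659g0110. Each of these intervals includes 0. Without replicate 1 of K326×GDH88, the library at the level of K326, Nitab4.5_0000659g0110 was called above the mid-parent value, at 0.33 (adjusted p = 0.014).

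**Figure D2:**
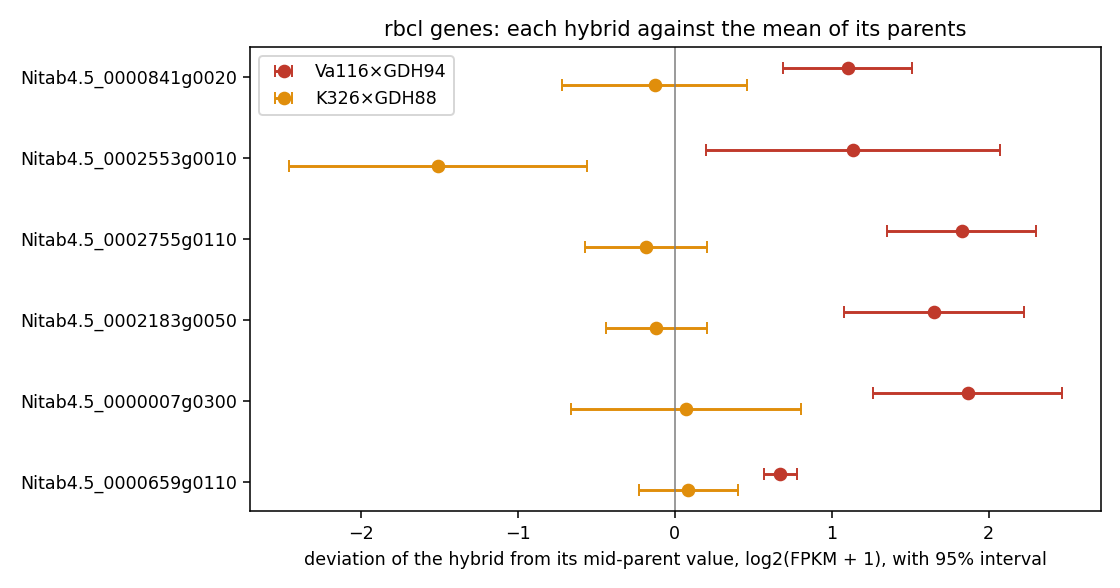
Deviation of each hybrid from its mid-parent value as log2(FPKM + 1) (x axis) for the 6 rbcl genes (y axis), with 95% intervals from limma (9 libraries per cross). In Va116×GDH94, for which the genes were listed, values run from 0.67 to 1.87, and in K326×GDH88 from -1.51 to 0.09 with 5 intervals that include 0.

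The difference of the deviation between the hybrids was fitted over all 18 libraries. It was called for 6 of 6 members, higher in Va116×GDH94 each time. Of 36573 genes tested, 32.3% were called in either direction and 22.6% were called higher in Va116×GDH94. The members' median was 1.78 and that of all genes 0.12. Since 1 side of this contrast is the one on which the list was drawn up, the values are a description, and no p is given. Va116×GDH94 had 12.4 times the mean FPKM of K326×GDH88 for Nitab4.5_0002553g0010, 10.5 times for Nitab4.5_0000007g0300, 8.85 times for Nitab4.5_0002183g0050, 8.16 times for Nitab4.5_0002755g0110, 4.77 times for NtrbcL and 1.68 times for Nitab4.5_0000659g0110. The first 2 ratios depended on single libraries of K326×GDH88. Without its replicate 3 they were 8.29 for Nitab4.5_0002553g0010 and 21.0 for Nitab4.5_0000007g0300, so their order turned, and without its replicate 1 they were 19.3 and 7.26. The labels give no sequencing batch, and whether the crosses were sequenced together was not tested.

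Nitab4.5_0000659g0110 differed in each of the comparisons between parents. Between Va116 and GDH94, 1 of 6 members differed, beside 44.3% of all genes. It was Nitab4.5_0000659g0110, higher in Va116 by 0.67 ± 0.05 on the log2 scale (limma adjusted p = 1.35e-05), while the median of all genes was -0.13. For the other 5 the difference lay between -0.61 and 0.06, with the widest interval, -1.69 to 0.47, for Nitab4.5_0002553g0010. Between K326 and GDH88 the same gene alone differed, beside 15.1% of all genes, and was lower in K326 by 0.78 ± 0.17 (adjusted p = 0.010). The other 5 had differences between -0.07 and 0.53 there, with the widest interval, -0.77 to 1.42, again for Nitab4.5_0002553g0010.

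Between Va116 and K326, the parents that the study used on 1 side of its crosses, 2 of 6 members differed, beside 31.5% of all genes. Nitab4.5_0000007g0300 was higher in Va116 by 1.14 ± 0.39 on the log2 scale (adjusted p = 0.033), and Nitab4.5_0000659g0110 by 0.92 ± 0.14 (adjusted p = 8.35e-05). The first call was lost without replicate 2 or 3 of either Va116 or K326, with adjusted p values of 0.098, 0.12, 0.062 and 0.13. Nitab4.5_0002755g0110, whose libraries of Va116 were all above those of K326, missed the threshold at 0.64 ± 0.25 (adjusted p = 0.057).

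Between GDH94 and GDH88, 3 of 6 members differed, beside 27.6% of all genes, and the median of all genes was 0.12. NtrbcL was higher in GDH94 by 0.97 ± 0.29 (limma adjusted p = 0.021) and Nitab4.5_0002755g0110 by 0.86 ± 0.25 (adjusted p = 0.015). Nitab4.5_0000659g0110 went the other way and was lower in GDH94 by 0.53 ± 0.14 (adjusted p = 0.0087). Both rises lost the call without GDH94 replicate 2, with adjusted p values of 0.065 and 0.081, or without GDH88 replicate 2, with 0.12 and 0.090. NtrbcL also lost it without GDH94 replicate 3 (adjusted p = 0.065). Nitab4.5_0002183g0050 had 0.64 ± 0.25 (adjusted p = 0.071) and Nitab4.5_0000007g0300 had 1.01 ± 0.39 (adjusted p = 0.062), and both passed the threshold when the fit held only the compared genotypes (adjusted p = 0.0083 and 0.0016).

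The members differed in how they varied together. NtrbcL, Nitab4.5_0002755g0110, Nitab4.5_0002183g0050 and Nitab4.5_0000007g0300 had pairwise Pearson r of 0.83 to 0.96 over the 18 libraries on the log2 scale. The points share libraries, and those of Va116×GDH94 stand apart and weigh heavily in r. Deviations from the genotype means, which leave differences between genotype means out, had r of 0.67 between Nitab4.5_0002755g0110 and Nitab4.5_0002183g0050, and of 0.52 between each of these and Nitab4.5_0000007g0300. For NtrbcL they had r of 0.55 with Nitab4.5_0002755g0110 and of 0.23 with Nitab4.5_0000007g0300. The spread within Va116×GDH94 remains in them, such as 6.21 to 18.0 FPKM for Nitab4.5_0002183g0050, and can weigh heavily in these r as well. In Va116×GDH94 all 4 were highest in replicate 1 and lowest in replicate 3. Nitab4.5_0002553g0010 and Nitab4.5_0000659g0110 were highest in replicate 3. Against the other 4, r over all libraries was 0.57 to 0.73 for Nitab4.5_0002553g0010 and 0.39 to 0.69 for Nitab4.5_0000659g0110. The deviations did not part the members so clearly. Those of Nitab4.5_0000659g0110 had r of 0.52 with Nitab4.5_0000007g0300 and of -0.20 to -0.03 with the rest of the 4. Those of Nitab4.5_0002553g0010 had r from -0.25 with Nitab4.5_0000007g0300 to 0.32 with NtrbcL.

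Within a library, Nitab4.5_0002183g0050 kept to 16.4% to 37.0% of the FPKM of Nitab4.5_0002755g0110, with a median of 24.1% over the 18 libraries. The median was 24.5% in Va116×GDH94, 25.5% in Va116, 23.6% in GDH94, 27.4% in K326, 21.4% in GDH88 and 25.5% in K326×GDH88. The level of Nitab4.5_0002755g0110 meanwhile ranged from 3.73 to 56.0 FPKM. NtrbcL was less steady, with a median of 26.0% of Nitab4.5_0002755g0110 in Va116×GDH94 and of 31.3% to 60.7% in the other genotypes. Nitab4.5_0000007g0300 ranged from 3.88% to 63.5%, both ends being libraries of K326×GDH88.

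**Figure D3:**
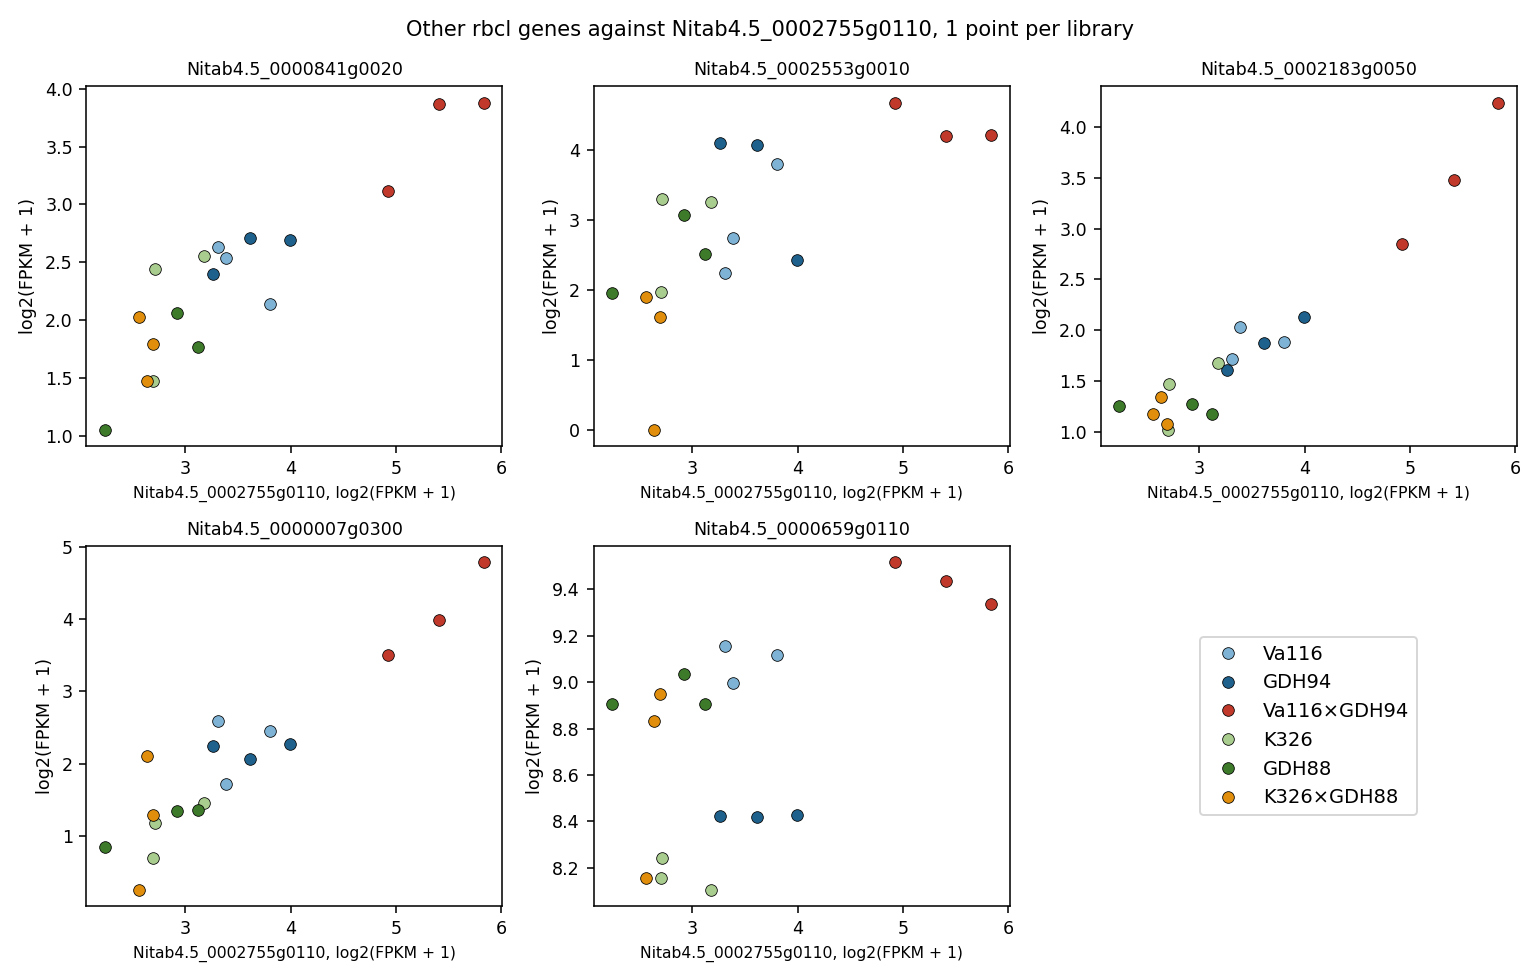
Each of the other 5 rbcl genes (y axes) against Nitab4.5_0002755g0110 (x axes), both as log2(FPKM + 1), with 1 point for each of the 18 libraries and a colour for each genotype. Nitab4.5_0002183g0050 and Nitab4.5_0000007g0300 follow the x axis (r of 0.96 and 0.93), and Nitab4.5_0000659g0110 does so less (r of 0.59).

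The genes with the most similar pattern over the 18 libraries were taken from the 36573 genes with a mean of at least 1 FPKM in some genotype. For Nitab4.5_0002183g0050 they were the member Nitab4.5_0002755g0110 (r = 0.96), Nitab4.5_0007104g0040 (r = 0.96) and Nitab4.5_0001439g0110 (r = 0.96). For Nitab4.5_0002755g0110 they were Nitab4.5_0002183g0050 (r = 0.96), Nitab4.5_0007104g0040 (r = 0.95) and Nitab4.5_0005949g0020 (r = 0.95). For Nitab4.5_0000007g0300 they were NtPsbA (Nitab4.5_0008665g0010, r = 0.95), Nitab4.5_0001014g0040 (r = 0.94) and Nitab4.5_0001439g0110 (r = 0.94). Nitab4.5_0007104g0040 is described as an RNA polymerase subunit joined to a photosystem antenna protein domain. NtPsbA and Nitab4.5_0001439g0110 are named for the D1 protein of photosystem II, a reaction centre protein that plants encode in the chloroplast. For NtrbcL the closest were Nitab4.5_0002649g0110 (r = 0.95), Nitab4.5_0007104g0040 (r = 0.92) and NtPsb (Nitab4.5_0003961g0020, r = 0.92).

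The other members had other neighbours in pattern. Those of Nitab4.5_0002553g0010 were Nitab4.5_0000879g0070 (r = 0.91), Nitab4.5_0001372g0090 (r = 0.90) and Nitab4.5_0003450g0040 (r = 0.89). Those of Nitab4.5_0000659g0110 were Nitab4.5_0003716g0040 (r = 0.96), Nitab4.5_0000334g0260 (r = 0.96) and Nitab4.5_0007669g0020 (r = 0.95). Of these 6 genes none is among the listed genes of chloroplast type.

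Genes whose products plants encode in the chloroplast were then read beside the members, as 8 models named by description, among them NtPsbA, NtPsb and NtatpF. The study's sheets that held them were also drawn up from Va116×GDH94, so their rise there is not independent evidence. Their summed level was 156 to 242 FPKM in the libraries of Va116×GDH94, 71.4 to 84.3 for Va116, 52.7 to 74.5 for GDH94, 44.3 to 61.8 in K326, 37.3 to 45.4 in GDH88 and 43.9 to 54.7 in K326×GDH88. As with 4 of the members, the sum in Va116×GDH94 was highest in replicate 1 and lowest in replicate 3, at 242, 220 and 156 FPKM. NtatpF went the other way and was the only listed gene highest in replicate 3, at 20.8, 20.5 and 35.0 FPKM. The part of chloroplast RNA in the members' values was not tested. Of the 8 genes, 6 passed the filter on low values in the Va116×GDH94 cross and 4 in the K326×GDH88 cross. Above both parents in Va116×GDH94 were 5, beside 13.1% of all genes. None was above both parents in K326×GDH88, beside 4.24% of all genes, and none below both, beside 9.01%. Against the K326×GDH88 mid-parent value none of the 4 was called, beside 34.7% of all genes, and their median deviation was 0.09. Of 6 tested between parents, 3 were higher in Va116 than in K326, beside 18.1% of all genes, and 2 in GDH94 than in GDH88, beside 19.8%, with none lower. Among these 6, Nitab4.5_0000593g0200 passed the filter only through Va116×GDH94, at a mean of 1.02 FPKM against at most 0.33 elsewhere. Of 4 tested between K326 and GDH88, 1 was higher in K326, beside 6.56% of all genes. With so few genes, nothing particular to the list is read from these counts.

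Nitab4.5_0007104g0040 made up most of that sum. It had a mean of 128 FPKM in the hybrid Va116×GDH94, 53.1 in the parent Va116, 40.5 in the parent GDH94, 31.1 in K326, 23.2 in GDH88 and 28.6 in K326×GDH88. Its deviations from the genotype means had r of 0.84 with those of Nitab4.5_0002183g0050, 0.76 with those of Nitab4.5_0002755g0110 and 0.75 with those of NtrbcL (18 libraries). They had r of 0.54 with those of Nitab4.5_0000007g0300, -0.08 with those of Nitab4.5_0002553g0010 and -0.04 with those of Nitab4.5_0000659g0110. The libraries of Va116×GDH94, which spread from 83.0 to 152 FPKM, can weigh heavily in these r too.

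A further pair of models described as the Rubisco large chain but not in the list was near the bottom of the table. Nitab4.5_0000266g0030 had 0.64 to 1.40 FPKM in Va116×GDH94, at most 0.20 in every other genotype, and was listed at 0 in all 3 libraries of GDH88. Nitab4.5_0006084g0010 had 0.40 to 1.55 FPKM in Va116×GDH94 and at most 0.44 elsewhere.

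The nuclear partner of the large chain, the small chain, was read beside the members in the 2 models listed. These models were also taken from the study's sheets on Va116×GDH94, so nothing is read from how they and the members differ in that hybrid. Nitab4.5_0001382g0020 had means of 9062 FPKM in Va116×GDH94, 14697 for Va116 and 9481 for GDH94, and at 16782 in K326×GDH88, 12130 in K326 and 15237 in GDH88. Nitab4.5_0002207g0050 had 1.27, 1.82 and 12.7 FPKM in Va116×GDH94 and 17721 to 25808 in K326×GDH88, with 1369 to 2770 in Va116 and GDH94 and 8572 to 14947 in K326 and GDH88. Small chain genes are a family of similar copies, so the split of reads between these models is uncertain. In the K326×GDH88 cross both were above the mid-parent value, beside 10.9% of all genes. The deviations in limma were 0.30 ± 0.08 (adjusted p = 0.019) and 0.97 ± 0.17 (adjusted p = 0.0031).

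A list of 4 nuclear photosynthesis genes held NtLhcb1, NtLhcb2, a fructose-1,6-bisphosphatase and a transketolase (the last 2 being enzymes of the Calvin cycle). All 4 were above both parents in Va116×GDH94, for which the study also listed such genes, beside 13.1% of all genes. In K326×GDH88, 2 were above the mid-parent value, beside 10.9% of all genes, and none below, beside 23.8%. NtLhcb1 was at 0.40 ± 0.10 on the log2 scale (limma adjusted p = 0.012) and NtLhcb2 at 0.67 ± 0.06 (adjusted p = 8.89e-05). Of the 4, NtLhcb2 alone was above both parents in K326×GDH88, beside 4.24% of all genes. Whether these genes differed from the members in this was not tested. Of the 4 respiration and reference genes of the study's primer set, 2 were below both parents in Va116×GDH94. None was above both, beside 13.1% of all genes. The study reported its respiration genes as lowered in this hybrid. The share of all genes below both parents there was not computed, so nothing is read from the count of 2. In K326×GDH88, 1 was above both parents, beside 4.24% of all genes. It was the reference gene, Nitab4.5_0002995g0050, and not a respiration gene.

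**Figure D4:**
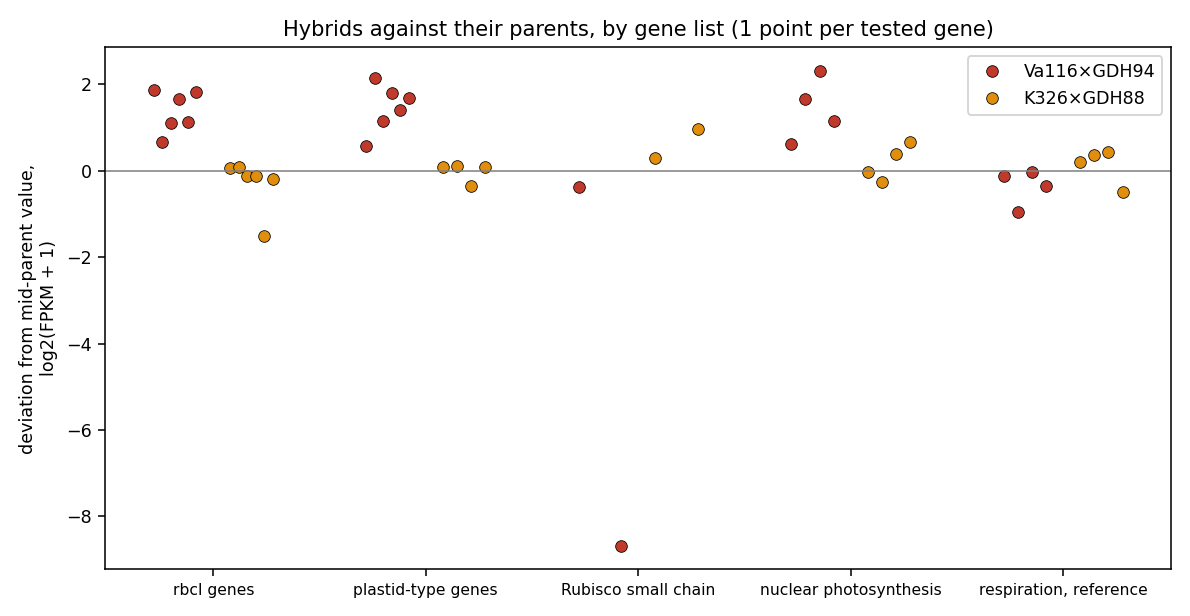
Deviation of each hybrid from its mid-parent value on the log2(FPKM + 1) scale (y axis) by gene list (x axis), with 1 point for each gene that passed the filter on low values. The rbcl and chloroplast-type genes lie above 0 in Va116×GDH94 and around 0 in K326×GDH88 except Nitab4.5_0002553g0010 at -1.51, and the lowest point is the small chain gene Nitab4.5_0002207g0050 at -8.68.

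The scaffold part of the members' identifiers differed for all 6. The other genes with the same scaffold part numbered 7 to 41 for each member, of which 4 to 19 had a mean of at least 1 FPKM in some genotype. Their median log2 deviation of Va116×GDH94 from its parents lay between -0.05 and 0.22 over the 6 scaffolds. Among the next genes in identifier order, those beside Nitab4.5_0002755g0110 and Nitab4.5_0000007g0300 had at most 0.28 FPKM on average in any genotype. Nitab4.5_0000841g0010, before NtrbcL, had 8.38 to 11.6 FPKM over the genotypes and 11.1 in both hybrids. Nitab4.5_0002183g0060, after Nitab4.5_0002183g0050, had 11.5 FPKM in Va116×GDH94 and 7.30 to 9.01 elsewhere. Nitab4.5_0000659g0120, after the member of high level, was itself at 3934 to 5702 FPKM.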

How the data were processed

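Total RNA of tobacco leaves was extracted with TRIzol and sequenced in pairs after TruSeq preparation, and the authors aligned reads to the K326 genome with HISAT2 and quantified genes with RSEM. StringTie is also named in the submitters' processing notes. Versions are not given in the sources used here. The values deposited by the authors were read as FPKM, to 2 decimals. The unit is not written in the table and was inferred from the quantification step and the unequal library sums. It holds no read counts, and depth per gene was not recovered from the rounded values, so error is the spread between replicates. The authors' DESeq2 results were not used. The number of per-sample columns left unused was 0.

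Genes whose mean reached 1 FPKM in some genotype of the fit were tested two-sided on log2(FPKM + 1) with limma 3.58.1 in R 4.3.3 (trend, 9 libraries per cross or all 18 across crosses). p values were adjusted by Benjamini-Hochberg over all genes tested. All 6 members passed the filter in each fit. All 6 were named. Other listed genes were given by counts with values for at most 6 beside the leaf markers, and 3 genes of highest r were named per member. Of neighbours in identifier order, those named are examples. The members and lists were chosen with earlier results of these data known. The fit was tested on simulated data. Other values came from Python 3.11.15 with pandas 2.3.3. Other pseudocounts, filters, scalings, weights, fits, fold limits and the replicate block were tried. Of 18 pairs of same-numbered libraries within a cross, 1 had deviations from the genotype means that correlated above 0.1, so the numbers were not taken to pair the libraries.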

Additional observations from a re-analysis of the deposited data

Results flagged for a closer look

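The deviation from the mid-parent value differed between the hybrids for all 6 rbcl genes. The difference, Va116×GDH94 minus K326×GDH88 on the log2(FPKM + 1) scale, was 1.23 ± 0.36 (SE) for NtrbcL (Nitab4.5_0000841g0020), 2.64 ± 0.67 for Nitab4.5_0002553g0010 and 2.01 ± 0.30 for Nitab4.5_0002755g0110. It was 1.77 ± 0.31 for Nitab4.5_0002183g0050, 1.80 ± 0.47 for Nitab4.5_0000007g0300 and 0.59 ± 0.17 for Nitab4.5_0000659g0110. The study listed these genes for their rise in Va116×GDH94, so the values describe a contrast of which 1 side chose the members, and no p is given. With median-ratio scaling the difference was 0.45 for Nitab4.5_0000659g0110, which was then not called.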

How the results depend on the processing

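No called result changed direction. Differences near 0 that were not called did change sign in some settings, such as the deviation from the K326×GDH88 mid-parent value for Nitab4.5_0000659g0110 (-0.12 to 0.22 over the settings) and for Nitab4.5_0000007g0300 (-0.37 to 0.55 with single libraries left out). Members above both parents in Va116×GDH94 numbered 4 to 5, and members above both in K326×GDH88 numbered 0, under every alternative run. Members below both parents in K326×GDH88 numbered 1 in place of 0 with the replicate block, and 0 to 1 with single libraries left out (1 without K326 replicate 3 or K326×GDH88 replicate 1). Members off the mid-parent value in K326×GDH88 numbered 0 with no filter on low values, and 0 to 2 with single libraries left out (2 without K326×GDH88 replicate 1, 0 without its replicate 3). With a limit of 2-fold, the counts were 0 between Va116 and GDH94 (beside 4.4% of all genes) and 0 between K326 and GDH88 (1.84%). They were 1 between Va116 and K326 (2.35%) and 0 between GDH94 and GDH88 (2.64%), and nothing is read from such small counts. With single libraries left out they were 1 to 2 between Va116 and GDH94 (2 without GDH94 replicate 2), 1 to 3 between Va116 and K326 (3 without Va116×GDH94 replicate 1 or 3, K326 replicate 1 or GDH88 replicate 2, and 1 without replicate 2 or 3 of either parent) and 1 to 5 between GDH94 and GDH88 (5 without Va116×GDH94 replicate 1, 1 without replicate 2 of either line). Between Va116 and K326 the count was also 1 with a pseudocount of 0.1 and 1 with no filter, and between GDH94 and GDH88 it was 5 with weights per genotype and 5 with only the compared genotypes in the fit. Nitab4.5_0002553g0010 against K326 in K326×GDH88 lost its call in 4 of the settings, with adjusted p up to 0.077, and Nitab4.5_0000659g0110 gained one there with median-ratio scaling (adjusted p = 0.040) and in a fit of all libraries (adjusted p = 0.014). Median-ratio scaling moved the median of all genes by 0.12 between Va116 and GDH94, by 0.11 for K326×GDH88 against its mid-parent value and by -0.18 between the hybrids. The replicate block changed no other count of members, and moved no count over all genes by over 1.5 times. The causes of these changes were not tested. With 3 libraries a group, differences within the spread of replicates could not be detected.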
